A study of Oryza sativa with 2 samples.

Results

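Basic leucine zipper (bZIP) transcription factors bind DNA as dimers, through a basic region that is followed by a leucine zipper. In plants, the bZIP factors of abscisic acid (ABA) signalling bind ABA-responsive elements in the promoters of stress genes. When ABA is present, its PYL receptors hold back clade A PP2C phosphatases, SnRK2 kinases (SAPK in rice) become active, and these phosphorylate the bZIP factors. The pathway is best known from drought, salt stress and seed maturation.

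The genes described are 9 rice bZIP genes tied to ABA responses, chosen by locus from the 55986 gene models of the deposited count table. They are bZIP23 (LOC_Os02g52780), bZIP72 (LOC_Os09g28310), TRAB1 (LOC_Os08g36790), bZIP46 (LOC_Os06g10880), bZIP12 (LOC_Os01g64730), ABI5 (LOC_Os01g64000), bZIP42 (LOC_Os05g41070), bZIP62 (LOC_Os07g48660) and bZIP71 (LOC_Os09g13570). RNA came from seedlings of the rice cultivar CARI Dhan 7. In the salinity group, seeds germinated and grew for 14 days in a solution of sodium, calcium and magnesium salts with an electrical conductivity of 6 dS/m. The control group was grown for the same 14 days in distilled water. Each group was 1 library, and the sources used here do not say how many seedlings went into it. No difference therefore has a replicate check, and there are no p-values.

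The salinity library held 15031328 counts and the control library 45359020. Every one of the 26437 nonzero salinity values was an even number, while 61.7% of the nonzero control values were. Counting errors are given on a read-pair scale inferred from the values, with 4 salinity counts or 2 control counts as 1 pair. Only 70.6% of the nonzero salinity values were multiples of 4, and the control held odd values, so that scale is approximate. A gene was called higher or lower where the whole 95% counting interval of its ratio lay beyond 2-fold. The background was taken over 26638 gene models whose counts in the 2 libraries sum to 10 or more, of which 2124 were called higher in the salinity library and 1376 lower, so that 39.3% of calls were lower. With total counts in place of TMM scaling, 56.5% of calls were lower, and the median log2 ratio of all models moved to -0.34, against -0.08 with TMM. Calls compare these libraries, and intervals cover counting error only, not the spread between seedlings or libraries. They may also be too narrow, since PCR copies were not marked and reads need not be independent.

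All 9 bZIP genes passed the count minimum. Of these, 4 were called higher in the salinity library, beside 7.97% of all models. They were bZIP23, bZIP72, bZIP12 and ABI5. None was called lower, beside 5.17% of all models, and the other 5 genes reached into the 2-fold range. The ABI5 call was lost with total counts, which leaves 3 of 9, beside 1639 of all 26638 models called higher with total counts. With intervals from the counts as deposited, which are narrower, the same 4 genes were called, while 10.6% of all models were higher and 10.3% lower. The median log2 ratio of the 9 genes was 0.99, which is 1.07 above the median of all models. In whole seedlings, more cells of a type and more RNA per cell cannot be told apart.

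bZIP23, bZIP72, TRAB1 and bZIP46 are close relatives of the Arabidopsis factors that bind ABA-responsive elements, and their ratios differed. bZIP23, a positive regulator of ABA responses and of drought and salt tolerance in rice, had 2986 counts in the salinity library and 2709 in the control library, which was sequenced more deeply. Per exon length, in counts per kilobase of exon per 1000000 TMM-scaled counts (RPKM), that was 101 in the salinity library (interval 94.0 to 109) and 25.5 in the control (interval 24.2 to 26.9). The level in the salinity library was 3.97-fold that of the control, or 1.99 on the log2 scale (interval 1.86 to 2.12). bZIP23 spans chromosome 2 from 32276591 to 32281653 on the minus strand of the deposited table, with 4 exon blocks.

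bZIP72, which activates ABA-responsive genes in rice, had 640 counts in the salinity library and 532 in the control. Its level was 24.9 RPKM (interval 21.2 to 29.1) in the salinity library and 5.76 RPKM (interval 5.09 to 6.49) in the control. The intervals of the levels were far apart, and the ratio was 4.33-fold, or 2.11 on the log2 scale (interval 1.82 to 2.40). The difference between bZIP72 and bZIP23 in log2 ratio was 0.13, with an interval of -0.19 to 0.44 that includes 0. bZIP72 lies on chromosome 9, from 17189976 to 17194013.

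TRAB1, named for its isolation as a partner of the seed regulator VP1, had 254 counts in the salinity library and 462 in the control. Its level was 12.5 RPKM (interval 9.65 to 16.0) in the salinity library and 6.34 RPKM (interval 5.55 to 7.21) in the control. The levels did not overlap in their counting error. The log2 ratio of 0.99 had an interval of 0.56 to 1.39, which lies above no change but reaches below 2-fold, so TRAB1 was not called. Its exons lie between 23234397 and 23240846 on chromosome 8.

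bZIP46 is a close relative of bZIP23 whose protein carries an inhibitory domain and needs activation. It had 100 counts in the salinity library and 451 in the control, which gives 4.03 RPKM (interval 2.61 to 5.95) in the salinity library and 5.05 RPKM (interval 4.41 to 5.75) in the control. The levels overlapped, and the log2 ratio of -0.32 had an interval of -0.98 to 0.27. Between bZIP23 and bZIP46 the log2 ratios differed by 2.31 (interval 1.70 to 2.99). That difference is free of library scaling, since both genes were measured in the same libraries. The bZIP46 model, on chromosome 6 from 5677080 to 5682126, lists 15 exon entries that merge into 4 blocks, so several annotated transcripts were summed.

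bZIP12, also known as ABF1, takes part in ABA and drought responses. It had 1934 counts in the salinity library and 2577 in the control. Its level was 67.3 RPKM (interval 61.5 to 73.6) in the salinity library and 24.9 RPKM (interval 23.6 to 26.3) in the control, where it could not be told from bZIP23. The ratio was 2.70-fold, or 1.43 on the log2 scale (interval 1.28 to 1.59), and it lay below that of bZIP23 by 0.55 (interval 0.35 to 0.75). With total counts the log2 ratio was 1.18 and the gene was still called.

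ABI5, the rice relative of a regulator of seed germination in Arabidopsis, had the lowest level of the 9 genes in both libraries, though in the salinity library it did not differ from bZIP62 beyond counting error. It had 40 counts in the salinity library and 26 in the control, which are 10 salinity and 13 control read pairs. The level was 1.62 RPKM (interval 0.777 to 2.98) in the salinity library and 0.293 RPKM (interval 0.156 to 0.501) in the control. The point estimate of the ratio was the highest of the 9 genes, at 2.46 on the log2 scale, but its interval ran from 1.12 to 3.77 and overlapped those of bZIP72, bZIP23 and bZIP12. With total counts the log2 ratio was 2.21 and the call was lost. ABI5 and bZIP12 both lie on chromosome 1, ABI5 from 37174547 to 37176550 and bZIP12 from 37556674 to 37560104.

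**Figure D1:**
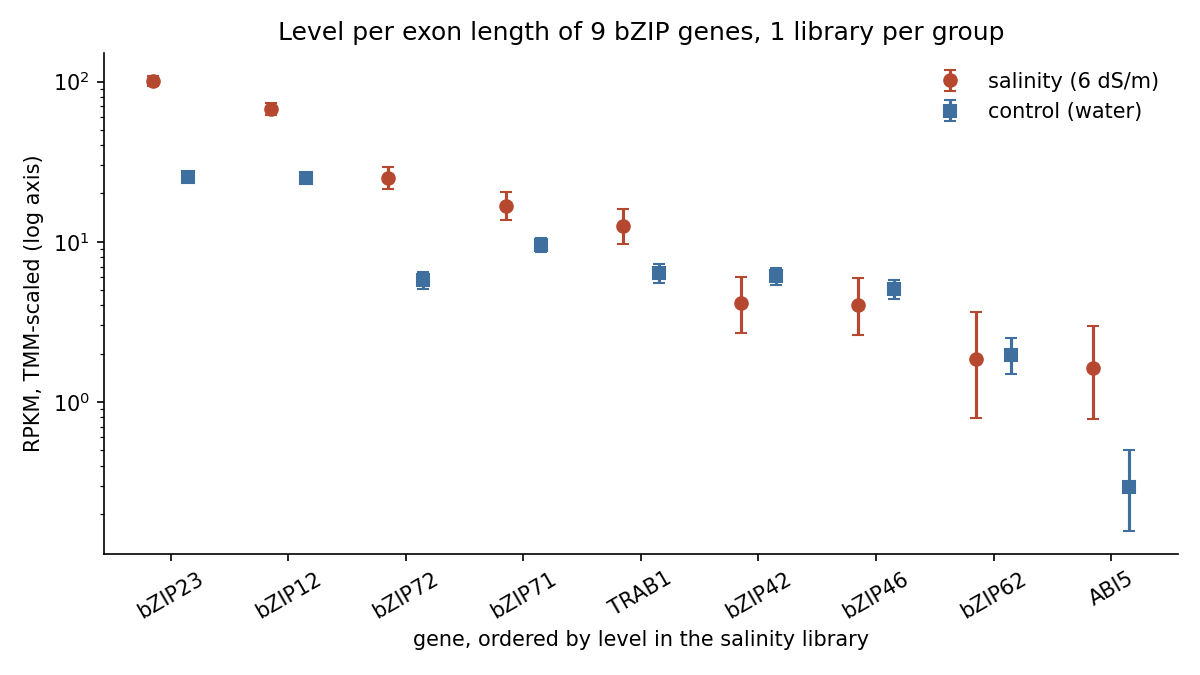
Level of each bZIP gene per exon length (RPKM, TMM-scaled, log axis) in the salinity library (circles) and the control library (squares), with 95% exact Poisson intervals computed on read pairs. bZIP23 and bZIP12 are the most abundant in both libraries. The intervals of bZIP42, bZIP46 and bZIP62 overlap between the libraries, and the share of all models with such overlap was not counted.

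bZIP42, bZIP62 and bZIP71 were not called. bZIP42, which promotes ABA signalling in rice, had 104 counts in the salinity library and 551 in the control. Its levels of 4.12 RPKM (interval 2.69 to 6.04) in the salinity library and 6.07 RPKM (interval 5.37 to 6.83) in the control overlapped, and its log2 ratio of -0.55 (interval -1.20 to 0.02) was the lowest of the 9 genes. It lies on chromosome 5, from 24062649 to 24066043. bZIP62, linked to drought and oxidative stress tolerance in rice, had 32 counts in the salinity library and 122 in the control. Its levels were 1.84 RPKM (interval 0.796 to 3.63) in the salinity library and 1.95 RPKM (interval 1.49 to 2.51) in the control, and the log2 ratio of -0.07 had an interval of -1.36 to 0.99. The interval is wide because bZIP62 rests on 8 salinity read pairs. bZIP62 lies on chromosome 7, from 29144895 to 29147038.

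bZIP71, which pairs with bZIP73 and is known for ABA-mediated tolerance of drought and salt, had 424 counts in the salinity library and 869 in the control. Its level was 16.8 RPKM (interval 13.7 to 20.3) in the salinity library and 9.56 RPKM (interval 8.68 to 10.5) in the control. The levels did not overlap, but the log2 ratio of 0.81 (interval 0.49 to 1.12) began inside the 2-fold range, and the gene was not called. On chromosome 9, from 7871403 to 7873655, 462 of its 1836 exon bases are shared with LOC_Os09g13575, a model on the same strand with 0 counts in both libraries. Over the remaining 1374 bases the level of bZIP71 would be 22.4 RPKM in the salinity library and 12.8 RPKM in the control, a calculation added after seeing the data, while the ratio stays as it is. bZIP73 had 42 counts in the salinity library and 122 in the control, and its log2 ratio of 0.32 had an interval of -0.79 to 1.27.

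**Figure D2:**
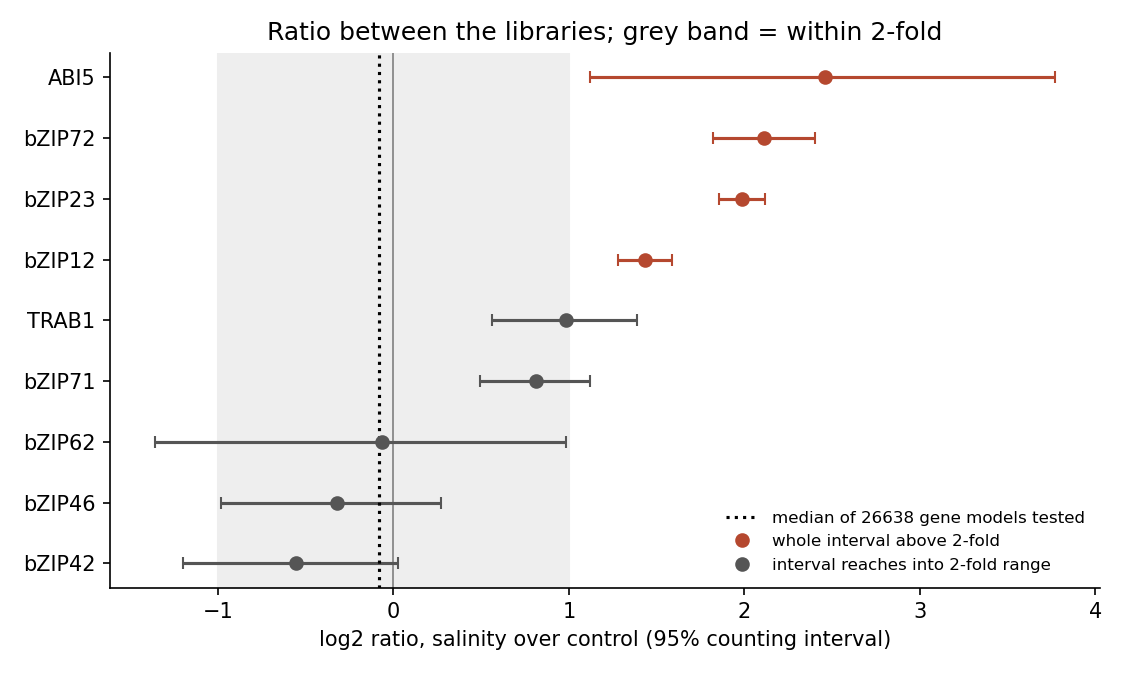
Log2 ratio of each bZIP gene, salinity over control, with its 95% counting interval. ABI5, bZIP72, bZIP23 and bZIP12 lie wholly above the grey band of 2-fold, and the dotted line marks the median of all models at -0.08.

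Because the ratios of any 2 genes in the same libraries can be compared without a scaling factor, all 36 pairs were set against each other with exact conditional intervals on read pairs. In 26 pairs the interval of the difference excluded 0. The remaining 10 pairs were within counting error. bZIP72, bZIP23 and bZIP12 each stood above TRAB1, bZIP71, bZIP62, bZIP46 and bZIP42. The narrowest of these margins was between bZIP12 and TRAB1, at 0.45 with an interval of 0.004 to 0.89. TRAB1 and bZIP71, which differed from each other by 0.17 (interval -0.35 to 0.70), stood above bZIP46 and bZIP42 by 1.13 to 1.54 on the log2 scale. bZIP62, bZIP46 and bZIP42 could not be told apart. These intervals are not adjusted over the 36 pairs.

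**Figure D3:**
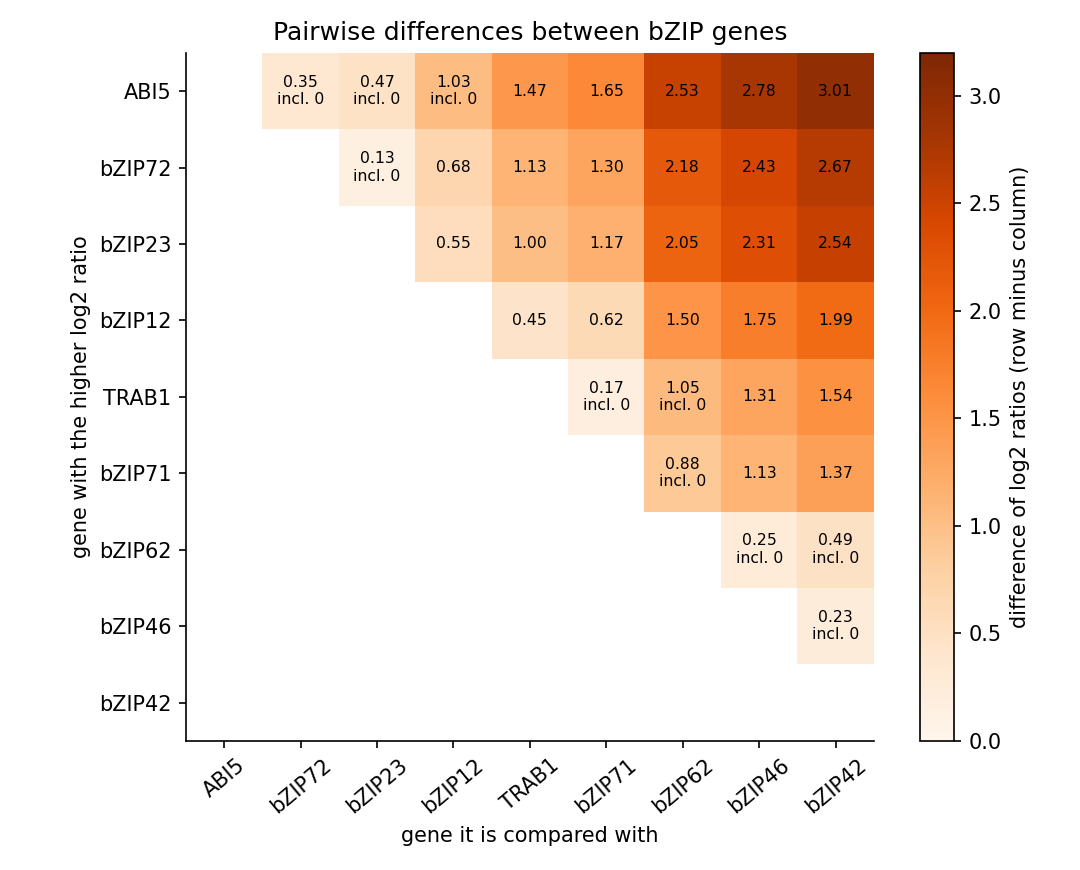
Differences in log2 ratio between pairs of bZIP genes, row minus column, with genes ordered by ratio. Cells marked "incl. 0" have a 95% counting interval that includes 0, and the widest point difference is 3.01, between ABI5 and bZIP42.

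The summed level of the 9 genes was 234 RPKM in the salinity library and 85.4 RPKM in the control, 2.74-fold higher. Their summed counts of 6514 in the salinity library and 8299 in the control gave a log2 ratio of 1.498 (interval 1.41 to 1.58). bZIP23 alone held 43.2% of the summed level in the salinity library and 29.8% in the control. bZIP12 held 28.7% in the salinity library and 29.2% in the control. Together bZIP23 and bZIP12 made up 71.9% of the sum in the salinity library and 59.0% in the control. bZIP72 held 10.6% in the salinity library and 6.74% in the control, whereas bZIP42 held 1.76% in the salinity library and 7.10% in the control. bZIP46 likewise held 1.72% in the salinity library and 5.91% in the control. Without bZIP23, the sum of the other 8 genes was still 2.22-fold higher, at 133 RPKM in the salinity library and 59.9 RPKM in the control.

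**Figure D4:**
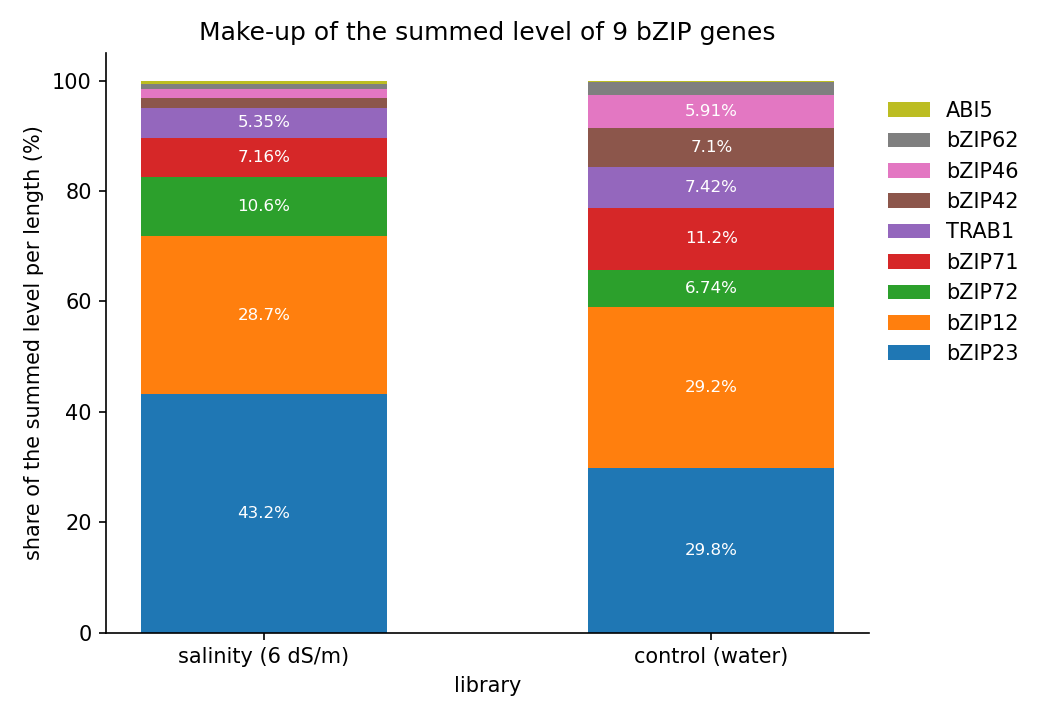
Share of each bZIP gene in the summed level per exon length, in the salinity library (left) and the control library (right). bZIP23 holds 43.2% in the salinity library, against 29.8% in the control, and shares under 4% are drawn without a label.

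The order of levels per length differed between the libraries mainly at bZIP72, which ranked 3 in the salinity library and 6 in the control. In the salinity library bZIP23 exceeded bZIP12 by 1.502-fold (interval 1.34 to 1.69), bZIP12 exceeded bZIP72 by 2.70-fold (interval 2.25 to 3.25), and bZIP72 exceeded bZIP71 by 1.49-fold (interval 1.16 to 1.92). bZIP71 and TRAB1 did not differ beyond counting error there, at 1.34-fold (interval 0.971 to 1.86). Both comparisons with bZIP71 use all its exon bases. Over the bases it does not share, bZIP71 would stand at 22.4 RPKM in the salinity library, beside 24.9 for bZIP72 and 12.5 for TRAB1. The comparisons were not repeated on that length, and both depend on it. At the low end the neighbours bZIP42, bZIP46, bZIP62 and ABI5 did not differ from one to the next. In the control, bZIP23 and bZIP12 were level at 1.02-fold (interval 0.947 to 1.10). After bZIP71 came TRAB1, bZIP42, bZIP72 and bZIP46, each within counting error of the next, and ABI5 stood last, below bZIP62 by 6.67-fold (interval 3.63 to 13.2). Among all models tested, bZIP23 stood at percentile 96.3 of level per length in the salinity library and 84.4 in the control, and bZIP72 at 82.8 in the salinity library and 50.2 in the control.

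The other genes of the pathway differed by layer, in lists drawn up with earlier results of these data known. Over all models, 7.97% were called higher and 5.17% lower. All 9 listed clade A PP2C genes, whose phosphatases hold SAPK kinases inactive, were called higher, with a median log2 ratio of 3.44. PP2C68 stood at 5.34, PP2C30 at 4.67, PP2C51 at 4.20 and PP2C09 at 3.48. PP2C53, at 1.25, was the member nearest the threshold, and it was no longer called when upper-quartile factors (1.21), no filter on low counts (1.22) or total counts (1.00) were used, which leaves 8 of 9 in each. Of the 10 SAPK kinase genes, 2 were called higher, SAPK1 at 3.18 and SAPK6 at 1.65, and the list median was 0.29. None of 8 PYL receptor genes was called in either direction, with a median of -0.10. Among them, PYL10 had 0 salinity counts and 10 control counts. That control level lies below 3 salinity read pairs after scaling, so the PYL10 ratio depends on the prior count. RefSeq gives the name of 1 of these 8, PYL5, to another locus.

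Downstream of the factors, 7 of 9 ABA-responsive LEA and dehydrin genes were called higher and 1 lower, beside 7.97% and 5.17% of all models. The list median was a log2 ratio of 3.07. LEA3-1 was at 6.75, RAB16A at 5.56, RAB16B at 5.20 and WSI18 at 3.08. The lower one was EMP1, a gene of the maturing embryo, at -2.58. VP1, the seed regulator that binds TRAB1, had 52 counts in the salinity library and 18 in the control and was called higher at 3.35 (interval 2.04 to 4.78), on 13 salinity and 9 control read pairs.

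With 2 libraries, likeness between genes can only mean a near log2 ratio. Among the pathway genes, PP2C08 at 1.67 lay nearest to both bZIP23 and bZIP72, PP2C53 at 1.25 nearest to bZIP12, and LIP9, a dehydrin gene, at 2.67 nearest to ABI5. No pathway gene of these lists had a ratio between 1.67 and 2.67.

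**Figure D5:**
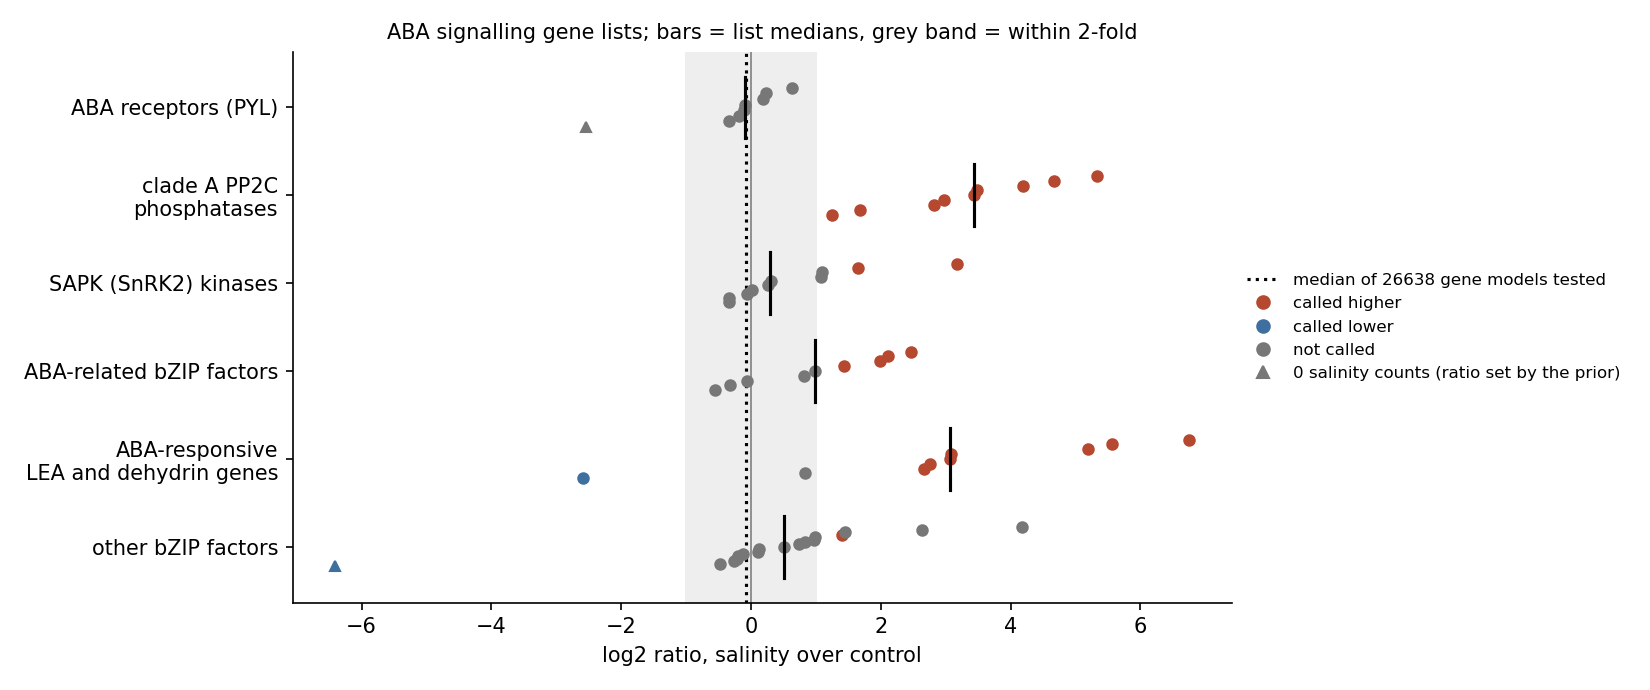
Log2 ratios, salinity over control, of the genes in 6 lists, with a bar at each list median. Clade A PP2C genes all lie above the 2-fold band, PYL receptor genes centre near no change, and triangles mark genes with 0 salinity counts, whose plotted ratio depends on the prior count.

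Of 17 other listed bZIP genes, among them the endoplasmic reticulum stress factor bZIP50 and the endosperm factor bZIP58, 1 was called higher and 1 lower. Among all models the shares were 7.97% higher and 5.17% lower. The median log2 ratio of the 17 genes was 0.51. bZIP20 was the higher one, at 1.41, and its call was lost with total counts. bZIP69 was the lower one, with 0 salinity counts and 152 control counts. It was at least 2.79-fold lower by its counting interval, or 3.52-fold against a floor of 3 read pairs per library. With intervals from the counts as deposited, 3 of the 17 were called higher, beside 10.6% of all models. Of the 17 log2 ratios, 11 were above 0. bZIP48 at 4.17 and bZIP16 at 2.64 had point estimates above those of all 9 ABA-related genes. They rested on 3 and 7 salinity read pairs, and on the read-pair scale they were not called. The summed level of these 17 genes was 464 RPKM in the salinity library and 416 RPKM in the control. The 9 ABA-related genes therefore held 33.5% of the summed level of all 26 listed bZIP genes in the salinity library and 17.0% in the control. That share depends on which genes were listed, since bZIP38 alone stood at 171 RPKM in the salinity library and 198 RPKM in the control.

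The 5 nearest measured gene models on each side of each bZIP gene were counted by their calls. Of these 90 neighbours, 7 (7.78%) were called higher, beside 7.97% of all models, and 9 (10%) lower, beside 5.17%. The median log2 ratio of the neighbours was -0.15. For bZIP23 the neighbours included AMY1A, an alpha-amylase gene of the germinating grain, 26411 bases away. AMY1A had 0 salinity counts and 68861 control counts, at least 1297-fold lower by its counting interval. AMY3E, a further alpha-amylase gene, lies 94319 bases from TRAB1 and was called lower at -4.21, with 16 salinity counts and 1098 control counts. AMY3D, the alpha-amylase gene next to it, had 96 salinity counts and 572 control counts, and its log2 ratio of -0.72 (interval -1.39 to -0.13) was not called.

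Markers of seedling parts were measured beside these results. Their calls stand beside shares over all models of 7.97% higher and 5.17% lower. The summed level of 4 leaf markers was 39317 counts per 1000000 in the salinity library and 24502 in the control, with 1 of 4 called higher (RBCS4, a Rubisco small-subunit gene, at 1.41). That of 6 root markers was 761 counts per 1000000 in the salinity library and 1140 in the control, with 1 called higher (NRT2.1, at 1.99) and 2 lower, NAS1 at -3.19 and NAS2 at -2.07. Of 5 grain markers, 2 were called lower, and their sum was 10.2 counts per 1000000 in the salinity library and 1427 in the control. Nearly all of the control sum was AMY1A, and the other 4 grain markers summed to 10.2 counts per 1000000 in the salinity library and 37.1 in the control. Besides AMY1A, the glutelin gene GLUA1 was at 0 in the salinity library, but with 19 control counts it was not called. The part of these differences in the bZIP ratios was not tested.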

How the data were processed

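Poly(A) RNA of whole seedlings was sequenced from 1 salinity and 1 control sample, from 800 ng of total RNA each, per the labels' protocols. The authors deposited raw counts for each gene model, beside its exon positions and length. STAR, featureCounts, DESeq2, FastQC and MultiQC are named in the submitters' processing notes. The sources used here give no versions, genome build, annotation, strand use or counting options, and coordinates are those of the deposited table.

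TMM factors (edgeR 4.0.16 in R 4.3.3) were computed over models with a summed count of 10 or more. Log2 ratios used a prior count of 0.5 per library. Intervals of 95% are exact conditional binomial intervals for ratios and exact Poisson intervals for levels, on read pairs. Dividing salinity counts by 4 and control counts by 2 is inferred from the values and approximate. The rule for calling a gene was an interval wholly beyond 2-fold. It was also run on counts simulated with counting error alone on that read-pair scale. Such counts follow the model that the intervals assume, so that run cannot test the rule on these data. Other steps used Python 3.11.15 with scipy 1.17.1, numpy 2.4.6 and pandas 2.3.3. DESeq2 1.42.0 gave size factors for 1 alternative.

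The members, gene lists and rules were chosen with earlier results of these data known. The 9 bZIP genes are all named. Of each pathway or marker list, up to 4 called genes with the largest conservative ratio are named, plus the genes nearest in ratio to a called bZIP gene, both partners (VP1 and bZIP73) and listed genes among the neighbours. EMP1, PYL5, PYL10, GLUA1, bZIP16, bZIP38, bZIP48, bZIP50 and bZIP58 were named after their values were seen. Locus names come from general knowledge and were compared with RefSeq (assembly ASM3414082v1) by name, chromosome, position within 6 Mb and span within 25%. Of the bZIP genes, bZIP23 and TRAB1 were found in the same place, and the other 7 names were not in the table. Of the 70 other listed genes, 47 were found in the same place, 21 names were not in the table, 1 (SAPK9) had another span and 1 (PYL5) was elsewhere. Sequences were not used here.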

Additional observations from a re-analysis of the deposited data

How the results depend on the processing

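Depth limits the ratios of bZIP62 (8 salinity read pairs), ABI5 (10) and VP1 (13). No paired analysis was possible because each group had 1 library, so leaving out a library was likewise impossible. Of 10 alternatives, an interval beyond 4-fold lowered the count of 4 bZIP genes called higher to 0. Each of their intervals began below 4-fold. Total counts lowered the count to 3, since ABI5 was lost. No bZIP gene was called lower under any of the 10, and the median of the 9 genes ran from 0.73 with total counts to 1.03 with at least 50 counts per gene. Over all models, 3408 were higher and 2803 lower with an interval beyond 1.5-fold, 792 and 398 beyond 4-fold, and 4322 and 5556 with a point estimate beyond 2-fold. Total counts gave 1639 higher and 2127 lower, and counts as deposited 2831 and 2755. Without division by exon length, bZIP23 held 45.8% of the summed bZIP level in the salinity library and 32.6% in the control. With 10 neighbours on each side, 6.67% were higher and 7.22% lower, beside 7.97% and 5.17% of all models. The planned promoter motif and protein comparisons were not run.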
